A study of Mus musculus with 24 samples.

Results

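Mice that had chronic unpredictable stress and then electroconvulsive therapy (ECT) were compared across diets: 4 hippocampal libraries from mice on the PLX diet against 6 from mice on the control diet, assigned by their titles and together 10 of the 24 libraries of the series. The mice were male wild type C57BL/6 animals aged 4 to 8 months. The PLX diet held PLX5562, in the labels a selective inhibitor of the CSF1 receptor kinase, and the control diet was the same food without it. The labels print its amount as 1200 mg/g, which is more than the weight of the food, so amount and name are given only as labelled and could not be checked. Both groups were fed their diet for 3 weeks, then went through a 5-week schedule of changing mild stressors, and then had ECT 3 times a week for 2.5 weeks, given through ear clip electrodes under light isoflurane anaesthesia. Other groups had the same diets and stress with sham treatment (5 libraries on each diet). A group of 4 nonstressed mice on the control diet entered the estimate of the spread, the filter on low values and the centring of list means. Whether the libraries of a group are different mice is not stated, and p-values refer to the variation among libraries, which may be technical.

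Microglia are the resident macrophages of the brain. They depend on the CSF1 receptor, which is activated by the cytokines CSF1 and IL-34, and inhibitors of its kinase given for weeks remove most of them. In healthy tissue they carry purinergic and chemokine receptors that sense neurons, complement and Fc receptors for uptake of debris, and lysosomal enzymes that digest it. In a bulk tissue library, fewer cells of a type and less RNA per cell cannot be told apart, and this holds for every gene below.

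Reads counted in genes numbered 15.66 M to 20.12 M in the 4 libraries on the PLX diet and 14.97 M to 15.996 M in the 6 on the control diet. Values are normalized counts: the reads of a gene over the size factor of its library. Of 23240 genes, 15225 reached 10 normalized counts in 4 or more of the 24 libraries and were tested with limma, and a gene is called when its Benjamini-Hochberg adjusted p over these genes is below 0.05. A gene could pass this filter through control-diet libraries alone, as Crybb1, Abcc3, C5ar1, Btk, Ccl6, Nlrp3 and Il1a did, among others. Genes low on both diets could not enter, so the filter can partly set the counts of lower genes in a list. Marker lists of hippocampal neurons were well expressed in both groups. The summed level of 15 pyramidal cell genes was 15830 to 18180 in libraries on the PLX diet and 15680 to 18130 in those on the control diet. Tissue next to the hippocampus was present in varying amounts. Ttr, which choroid plexus expresses in brain, had 47339 normalized counts in library 12 of the PLX group against 1485 to 2202 in its other 3 libraries, and in the control group 14068 to 31293 in libraries 2, 3 and 4 against 904 to 1651 in the other 3. Library 12 stood apart from the rest of its group in many of the results, so values are given with and without it where this matters.

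On the PLX diet, 283 genes were called lower (1.86% of those tested) and 67 higher (0.44%). The falls were large and the rises small. The log2 fold change, PLX diet minus control diet on the log2(value + 1) scale, had a median of -1.33 among the lower genes, with 185 below -1 and 73 below -2, and a median of 0.42 among the higher genes, with 24 above 0.5 and 2 above 1. The groups did not overlap in any library for 241 of the 283 lower genes and 42 of the 67 higher ones. Over all tested genes this was so for 493 (3.24%), with the PLX libraries below all control libraries for 339 (2.23%) and above them for 154 (1.01%). Of the lower genes, 10 kept under 10% of their mean level on the control diet, 71 kept 10 to 25%, 109 kept 25 to 50%, 58 kept 50 to 75% and 35 kept 75% or more. Fewer genes passed as higher without library 12, when 13 were called, and without library 15 (21), library 4 (34) or when the model held the ECT groups alone (16), whereas without library 1 there were 101. The count of lower genes ran from 206 to 299 over all alternatives run.

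**Figure D1:**
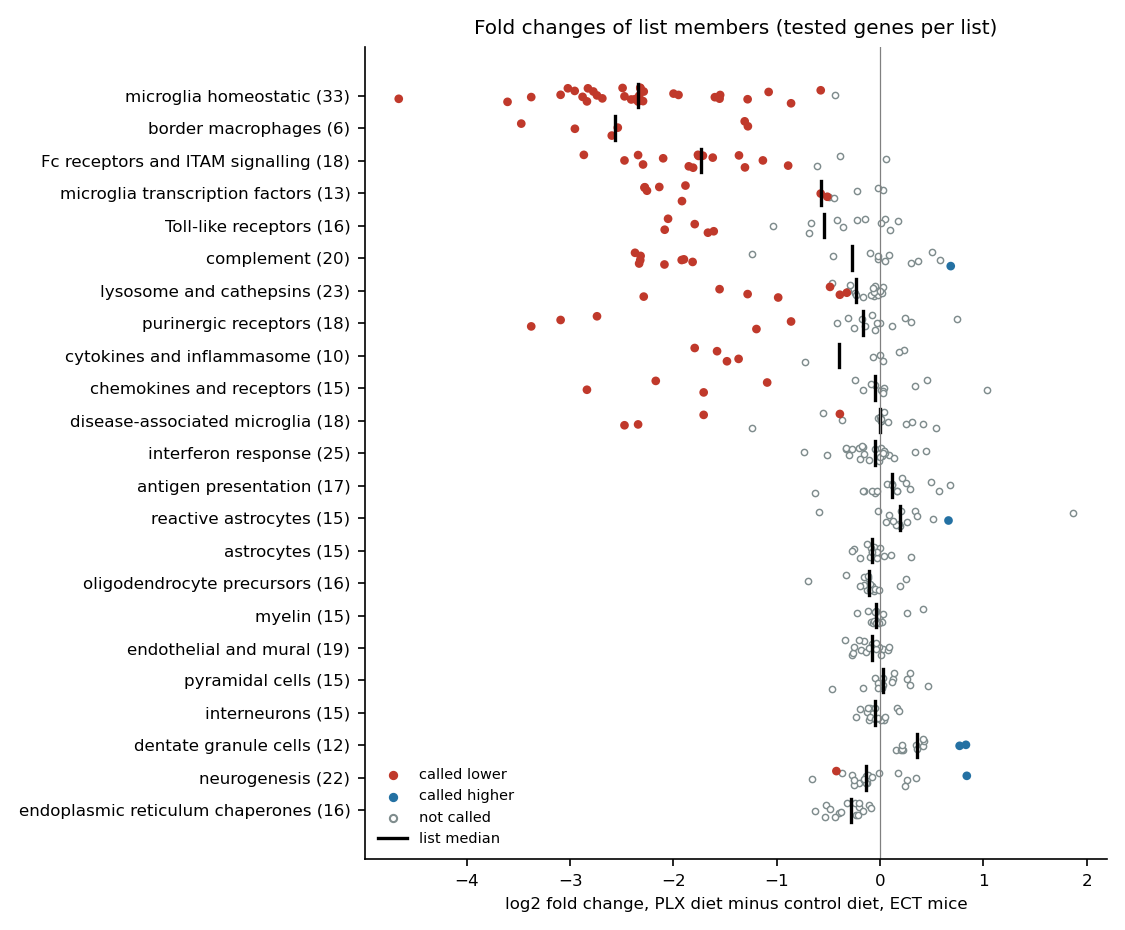
Log2 fold change (PLX diet minus control diet, ECT mice) of each tested member of 23 gene lists, one list per row with its number of tested genes. Filled points passed the test, open points did not, and black bars mark list medians. All members of the homeostatic microglial and border macrophage lists lie left of 0, as do 17 of 18 in the Fc receptor list. Lists of homeostatic astrocytes, myelin, vessels, pyramidal cells and interneurons centre near 0, and the dentate granule cell list has a median of 0.35. The meningeal fibroblast, choroid plexus and thalamus lists are not among those drawn.

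Genes of homeostatic microglia fell together. Of 33 tested list members, 32 were called lower and 0 higher, with a median log2 fold change of -2.34 against 0.00 over all tested genes, and the groups did not overlap for 30. Several of these genes also stand in the functional lists below. P2ry12 (chromosome 3, 59216271 to 59262985), the ADP receptor that steers microglial processes to injury, had 103, 101, 75.2 and 63.9 normalized counts in libraries 12, 13, 14 and 15 on the PLX diet. On the control diet it ran between 504 and 632 (median 554). All PLX libraries were far below all control libraries, and the PLX mean was 15.1% of the control mean (log2 fold change -2.74, SE 0.14, adjusted p = 2.53e-12). Csf1r itself, the receptor that the diet's compound inhibits, had 308, 209, 188 and 216 on the PLX diet, against between 1482 and 1743 (median 1588) on the control diet (log2 -2.83, SE 0.16, adjusted p = 5.01e-11). Library 12 was the highest of the PLX group for this gene, and still far below the lowest control library. Cx3cr1, the receptor for the neuronal chemokine fractalkine, had 172, 127, 68.3 and 71.4 on the PLX diet, against between 645 and 822 (median 748) on the control diet (log2 -2.84, SE 0.20, adjusted p = 2.06e-09). Tmem119, a surface protein used as a microglial marker, had 92.3, 78.2, 19.8 and 36.5, against between 362 and 426 (median 405) on the control diet (log2 -3.02, SE 0.29, adjusted p = 2.93e-07). The libraries of the PLX group differed from each other more in this gene than in P2ry12, with library 14 lowest.

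The deepest fall in the list was in Crybb1, a crystallin gene that microglia express, with 0, 3.73, 3.96 and 0.830 normalized counts on the PLX diet, against between 47.4 and 93.1 (median 63.5) on the control diet (log2 -4.66, SE 0.33, adjusted p = 3.29e-10). Library 12, which kept the most signal for most microglial genes, had none for this one. Crybb1 reached the filter only through control-diet libraries. Over the alternatives run its log2 fold change lay between -5.11 and -2.85, so the size of this fall depends on the fit. Abcc3, a transporter of organic anions, was nearly as low at 2.68 ± 2.14 on the PLX diet (SD, n = 4), against 40.3 ± 10.2 on the control diet (SD, n = 6), a log2 fold change of -3.61. Abcc3 too reached the filter only through control-diet libraries. Gpr34, a receptor for lysophosphatidylserine, kept 9.78% of its control level, P2ry13, another ADP receptor, 12.3%, Selplg, the P-selectin ligand, 12.9%, and Siglech, a sialic acid binding lectin, 13.4%. Aif1, which codes for the histological marker IBA1, kept more, with 36.3, 19.6, 17.8 and 14.9 on the PLX diet, against between 49.5 and 79.9 (median 67.0) on the control diet (log2 -1.60, SE 0.20, adjusted p = 6.48e-06). The smallest called fall was that of Sall1, a transcription factor of microglial identity that other neural cells also express, at 67.0% (log2 -0.57). Cd300a, an inhibitory receptor, was the one tested member that did not pass, at 34.1 ± 5.36 on the PLX diet, against 47.3 ± 11.9 on the control diet (log2 -0.43, adjusted p = 0.406).

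**Figure D2:**
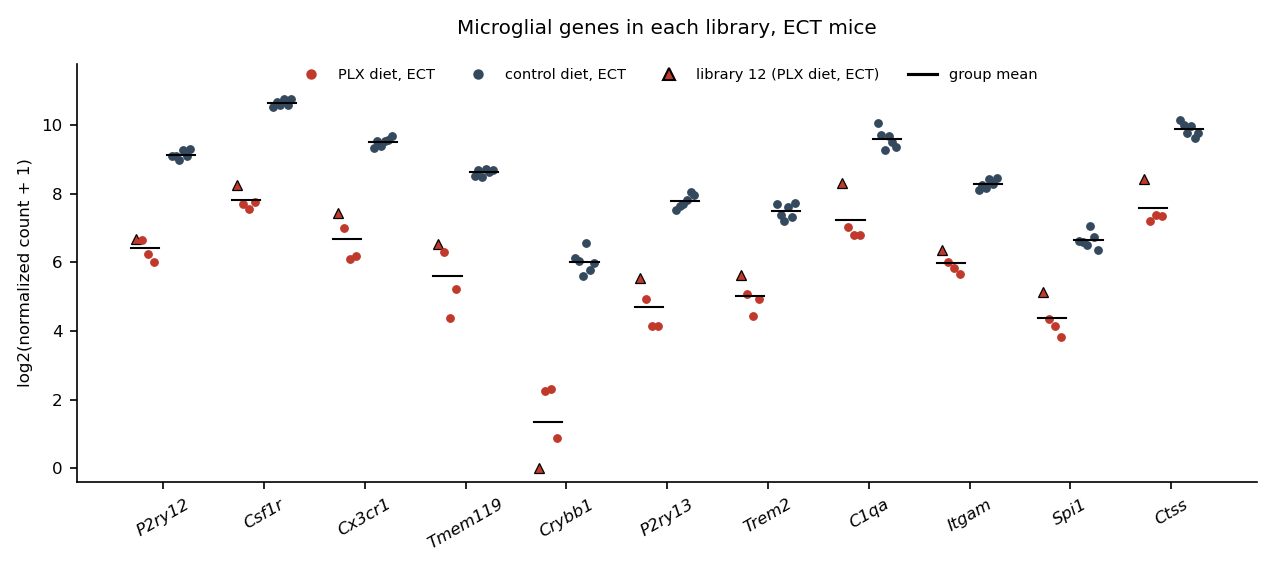
Log2(normalized count + 1) of 11 microglial genes in each library of the ECT mice, PLX diet left and control diet right within each gene. Bars mark group means, and triangles mark library 12 of the PLX group, which is the highest of its group for 10 of the 11 genes and the lowest for Crybb1.

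The microglial lineage factors were lower in part. Of 13 tested, 8 were called lower and 0 higher. Spi1 (chromosome 2, 91082374 to 91115759), which codes for PU.1, the factor that specifies the macrophage lineage, had 34.2, 19.6, 16.8 and 13.3 normalized counts on the PLX diet, against between 81.0 and 133 (median 97.3) on the control diet (log2 -2.28, SE 0.20, adjusted p = 2.29e-08). Irf8, a partner of PU.1, had 47.7, 19.6, 15.8 and 14.1, against between 86.4 and 121 (median 90.1) on the control diet (log2 -2.14, SE 0.23, adjusted p = 4.23e-07), with library 12 well above the other 3 PLX libraries. Irf5, Ikzf1, which codes for Ikaros, Runx1 and Hhex were called lower too, with log2 fold changes of -2.28, -2.26, -1.92 and -1.88.

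The promoters of these genes were read from RefSeq windows (GRCm38.p6) that run from 250 bases before an annotated start through the first 50 bases of the gene. They were searched on both strands for GAGGAAG, the core that PU.1 binds, because Spi1 was among the genes that fell. Among the genes with 1 window, the letters were present for 56 of 168 genes called lower (33.3%), for 4 of 36 called higher (11.1%) and for 1208 of 9181 tested genes (13.2%). Of all 32851 windows in the RefSeq table, 13.6% held them. A match describes the letters only, and the absence of one says only that these letters are not in this window. Capitals mark each match. The 4 windows below belong to genes with large falls, 3 with matches and 1 without, and were picked after their values were seen. P2ry13 (chr3:59210833-59211132, minus strand) has a match that starts 48 bases before the start. Trem2, a lipid-sensing receptor (chr17:48346151-48346450, plus strand), has the reverse complement 41 bases before it. Itgam, the complement receptor chain CD11b (chr7:128062390-128062689, plus strand), has a match 84 bases before the start and a reverse complement at base 32 of the gene. P2ry12 (chr3:59262936-59263235, minus strand) has none.
P2ry13: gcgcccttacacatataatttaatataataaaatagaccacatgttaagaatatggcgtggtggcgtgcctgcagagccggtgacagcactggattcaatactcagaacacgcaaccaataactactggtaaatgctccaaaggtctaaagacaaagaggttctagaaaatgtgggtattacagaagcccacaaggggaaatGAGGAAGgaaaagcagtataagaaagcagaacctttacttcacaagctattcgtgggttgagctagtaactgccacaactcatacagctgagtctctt
Trem2: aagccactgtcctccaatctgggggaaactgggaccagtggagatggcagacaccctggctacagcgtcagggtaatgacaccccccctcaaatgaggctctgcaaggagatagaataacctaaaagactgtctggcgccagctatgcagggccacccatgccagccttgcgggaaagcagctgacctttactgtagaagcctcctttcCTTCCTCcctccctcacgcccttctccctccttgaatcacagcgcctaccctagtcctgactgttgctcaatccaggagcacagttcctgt
Itgam: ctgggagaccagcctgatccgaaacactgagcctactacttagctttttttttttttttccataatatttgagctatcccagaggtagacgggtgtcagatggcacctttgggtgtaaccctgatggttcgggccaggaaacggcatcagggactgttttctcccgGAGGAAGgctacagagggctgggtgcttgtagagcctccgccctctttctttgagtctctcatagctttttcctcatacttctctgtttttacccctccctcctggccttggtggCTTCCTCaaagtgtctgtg
P2ry12: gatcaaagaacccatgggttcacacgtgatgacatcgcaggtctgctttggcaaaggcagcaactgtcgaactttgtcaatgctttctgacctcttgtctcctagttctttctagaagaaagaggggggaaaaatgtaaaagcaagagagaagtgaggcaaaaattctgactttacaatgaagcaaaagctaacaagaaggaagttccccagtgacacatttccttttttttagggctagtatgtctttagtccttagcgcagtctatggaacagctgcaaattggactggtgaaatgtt
P2ry13 and P2ry12, which are neighbours on chromosome 3, had log2 fold changes of -3.09 and -2.74, one with the letters in its window and the other without.

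Of 20 complement genes tested, 8 were called lower, 1 was called higher and 11 did not pass, and the list median was -0.27. The subunits of C1q, the protein that starts the classical pathway and is made mainly by microglia in brain, were lower in every PLX library. C1qa (chromosome 4, 136895916 to 136898844) had 317, 129, 109.9 and 111 normalized counts on the PLX diet, against between 624 and 1065 (median 781) on the control diet (log2 -2.37, SE 0.23, adjusted p = 3.06e-07). Library 12 was far above the other 3, and without it 14.8% of the control mean remained (log2 -2.73) in place of 21.1%. C1qb and C1qc followed, at 21.7% and 20.9% with library 12 and 15.3% and 16.4% without it. Itgam, the receptor chain for cleaved C3, had 80.9, 64.3, 56.4 and 49.8, against between 278 and 354 (median 308) on the control diet (log2 -2.32, SE 0.20, adjusted p = 4.01e-08). The anaphylatoxin receptors C3ar1 and C5ar1 had log2 fold changes of -1.81 and -1.90, and C5ar1 did not pass without library 14 (adjusted p = 0.0798) or with the letter in the titles as a random effect (adjusted p = 0.0662). C4b, the component that follows C1q in the cascade and that astrocytes and neurons express, was higher instead, and reads of its near-identical copy C4a could not be told from its own. It had 1973, 2043, 1568 and 1293 on the PLX diet, against between 867 and 1377 (median 1023) on the control diet (log2 0.68, SE 0.15, adjusted p = 0.0133), and its groups overlapped through control library 5. The C4b call was lost without library 12 (adjusted p = 0.0773) or library 13. C3, the central component, did not pass, at 83.3 ± 31.3 on the PLX diet, against 65.9 ± 51.7 on the control diet (adjusted p = 0.811).

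Receptors that signal through the ITAM motif, and their kinases, were lower almost as a whole: 15 of 18 were called lower and 0 higher (median -1.74). Tyrobp, the adaptor DAP12, had 70.5, 28.9, 31.7 and 27.4 normalized counts on the PLX diet, against between 159 and 238 (median 182) on the control diet (log2 -2.34, SE 0.24, adjusted p = 4.05e-07). Without library 12 its remaining level was 15.3% in place of 20.7%. Trem2, which signals through it, had 48.7, 32.6, 20.8 and 29.9, against between 147 and 210.3 (median 182) on the control diet (log2 -2.47, SE 0.17, adjusted p = 3.29e-10). Fcer1g, the shared Fc receptor chain, kept 20.7% of its level and Fcgr3, a receptor for immunoglobulin G, 13.3%, while the inhibitory Fcgr2b kept 23.8%. For Fcgr3 library 12 did not stand apart from its group, at 29.0, 25.1, 28.7 and 32.4 in libraries 12 to 15, against between 177 and 236 (median 221) on the control diet. Downstream, the kinases Btk and Syk kept 23.8% and 44.9%.

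Toll-like receptors had 5 of 16 members called lower and 0 higher. Cd14, the co-receptor for lipopolysaccharide, had 11.4, 9.31, 8.91 and 9.13 normalized counts on the PLX diet, against between 35.2 and 50.3 (median 45.2) on the control diet (log2 -2.08, SE 0.25, adjusted p = 2.69e-06). The nucleic acid sensors Tlr7 and Tlr13 kept 28.5% and 23.6%, and Unc93b1, the chaperone that carries such receptors to endosomes, 31.6%. In the lysosome list, 7 of 23 were called lower and 0 higher (median -0.24), and the depth of the fall differed widely between enzymes. Ctss, cathepsin S, had 344, 147, 167 and 164, against between 795 and 1143 (median 943) on the control diet (log2 -2.29, SE 0.19, adjusted p = 1.85e-08). Cd68, a lysosomal membrane protein of macrophages, kept 41.4%, Ctsh, cathepsin H, 51.2%, Lgmn, legumain, 71.5%, and Grn, progranulin, 80.0%. Ctsd, cathepsin D, which neurons and other glia also make, had 4526, 4024, 3764 and 3878 on the PLX diet, against between 5012 and 5842 (median 5225) on the control diet (log2 -0.39, SE 0.07, adjusted p = 0.00112). Its groups did not overlap although the difference was small.

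Some cytokine and chemokine genes fell as well. Of 10 tested cytokine and inflammasome genes, 4 were called lower and 0 higher: Tgfb1, Nlrp3, Pycard and Il1a. The list holds 15 genes. Nlrp3 and Il1a reached the filter only through control-diet libraries, so the filter partly sets this count. Tgfb1, the growth factor on which the homeostatic state depends, had 67.4, 58.7, 39.6 and 38.2 normalized counts on the PLX diet, against between 119.6 and 176 (median 137) on the control diet (log2 -1.48, SE 0.16, adjusted p = 4.41e-07). Its receptor genes Tgfbr1 and Tgfbr2, which vessels and other cells also express, had log2 fold changes of -0.84 and -0.54, and Tgfbr2 did not pass in 6 of 20 alternatives: without library 3, 4, 14 or 15, with the title letter (adjusted p = 0.0651) and with the ECT groups alone (adjusted p = 0.171). Nlrp3, an inflammasome sensor, had 8.29, 3.73, 2.97 and 3.32, against between 10.1 and 25.1 (median 19.1) on the control diet (log2 -1.79, SE 0.29, adjusted p = 0.000289), and Pycard, the inflammasome adaptor ASC, kept 38.5%. Il1a, interleukin 1 alpha, was at 4.19 ± 3.48 on the PLX diet, against 13.0 ± 4.01 on the control diet (adjusted p = 0.0227), and did not pass in 6 of 20 alternatives, which were those without library 4, 13, 14 or 15, the title letter (adjusted p = 0.0993) and the ECT groups alone (adjusted p = 0.0892). Of 15 tested chemokine genes, from a list of 23, 4 were called lower and 0 higher. Among these were Cx3cr1 and the macrophage chemokines Ccl6 and Ccl9, which kept 28.6% and 45.5%. Ccl6 reached the filter only through control-diet libraries. Among 9 checkpoint genes 4 were called lower: Cd86, a co-stimulatory ligand (13.1% of control), Havcr2, which codes for TIM-3 (18.4%), Lag3, a receptor for MHC class II (31.1%), and Lgals9, galectin 9 (54.7%). Lag3 did not pass when the letter in the titles was a random effect (adjusted p = 0.0503).

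Most other genes in the list built around the CSF1 receptor, which also holds its ligands, were not called by limma. Of 13 tested, Csf1r and 1 other gene were called lower and 0 higher. That gene was Csf3r, the receptor for granulocyte colony-stimulating factor, with 41.5, 28.9, 35.6 and 30.7 normalized counts on the PLX diet, against between 141 and 176 (median 163) on the control diet (log2 -2.22, SE 0.14, adjusted p = 1.12e-10). The ligands did not pass. Il34 had 399, 529.9, 642 and 649 on the PLX diet, against between 464 and 647 (median 589.7) on the control diet (log2 -0.07, adjusted p = 0.861). Csf1 had 803, 805, 735 and 763 on the PLX diet, against between 595 and 735 (median 648) on the control diet (log2 0.25, SE 0.07, adjusted p = 0.0735). Libraries 12, 13 and 15 lay above all control libraries and library 14 was level with the highest of them, library 3. Csf1 was called higher without library 3, by DESeq2 and with the tissue covariates.

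Brain border macrophages, which also depend on the CSF1 receptor, had 6 of 6 tested genes called lower (median -2.57), of 11 in the list, the other 5 being too low to test. Mrc1, F13a1 and Cbr2 reached the filter only through control-diet libraries. A listed gene low on both diets could not enter, so the filter partly sets this count. The count was less stable than in microglia: 3 to 6 were called lower over the alternatives run, with 3 when the model held the ECT groups alone, 4 by DESeq2 and 5 without library 12, and all 6 fold changes were negative in each. Mrc1, the mannose receptor, had 0, 2.79, 0 and 0.830 normalized counts on the PLX diet, against between 8.72 and 39.0 (median 15.2) on the control diet (log2 -3.47, SE 0.41, adjusted p = 2.10e-06). Libraries 12 and 14 held none. Stab1, a scavenger receptor, had 33.2, 27.9, 31.7 and 25.7, against between 144 and 223 (median 175) on the control diet (log2 -2.54, SE 0.11, adjusted p = 2.14e-13), with little spread among the PLX libraries. Adgre1, which codes for the macrophage marker F4/80 and is not in this list, had 16.6, 3.73, 5.94 and 4.98, against between 39.3 and 72.6 (median 54.7) on the control diet (log2 -2.84, SE 0.26, adjusted p = 3.25e-08). How much of the falls in Stab1 and Adgre1 came from microglia was not tested. F13a1, the coagulation factor chain of these macrophages, and Cbr2, a carbonyl reductase, were at 1.27 ± 1.54 and 0.480 ± 0.555 on the PLX diet, against 13.5 ± 10.7 and 10.1 ± 2.79 on the control diet. F13a1 did not pass when the model held the ECT groups alone (adjusted p = 0.0911). The list of other leukocytes had 1 tested gene, which was not called by limma. The list of red blood cells had 1 as well, Alas2, the first enzyme of heme synthesis in red cell precursors, with 149, 106, 77.2 and 68.0 on the PLX diet, against between 35.985 and 47.2 (median 42.1) on the control diet. Its groups did not overlap, and it did not pass by limma (log2 1.18, SE 0.36, adjusted p = 0.107) but was called higher by DESeq2, with the ECT groups alone and with the tissue covariates.

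Other immune lists had fewer calls or none. Of 17 antigen presentation genes 0 were called in either direction by limma (median 0.12), and of 25 interferon response genes 0 (median -0.05). B2m, which codes for beta-2 microglobulin of the MHC class I complex, had 2368, 1758, 1685 and 1785 normalized counts on the PLX diet, against between 1907 and 2282 (median 2062) on the control diet (log2 -0.15, adjusted p = 0.683). Library 12 lay above all control libraries and the other 3 below all of them. Without library 12 the medians were -0.06 for antigen presentation and -0.28 for the interferon list, in which 3 of 25 fold changes were then positive, and again 0 of either list were called. Missing the threshold does not show that these genes were equal. Genes of disease-associated microglia had 4 of 18 called lower and a median of 0.00: Trem2, Tyrobp, Ccl6 and Ctsd, which other lists hold as well. Phagocytosis receptors had 2 of 14 called lower, Stab1 and Itgb5, an integrin chain that kept 61.1%.

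Library 12 was the highest of the 4 PLX libraries for 158 of the 283 lower genes, library 13 for 71, library 14 for 38 and library 15 for 16. Its mean over the 33 homeostatic genes, on a log2 scale centred on all 24 libraries, was -1.09, against -1.57, -1.82 and -1.80 in libraries 13, 14 and 15. The control libraries lay between 0.65 and 0.88. Summed over the list, the PLX libraries held 2473 to 4282 normalized counts and the control libraries 11990 to 14140. The same library had the highest list mean of its group for the interferon genes (0.60, against -0.44 to -0.20 in the other 3), for antigen presentation (0.35, against -0.29 to -0.16) and for choroid plexus (1.80, against -1.57 to -1.20). With library 12 left out, 257 genes were called lower, 241 of them shared with the 283, and the homeostatic list again had 32 of 33 called lower (median -2.62). The part of choroid plexus or other tissue in the values of library 12 was not tested. Libraries 12 and 13 share the title letter G, and libraries 14 and 15 share H. On the homeostatic list mean both G libraries lay above both H libraries. The part of the letter, whose meaning is not stated, in this split was not tested.

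**Figure D3:**
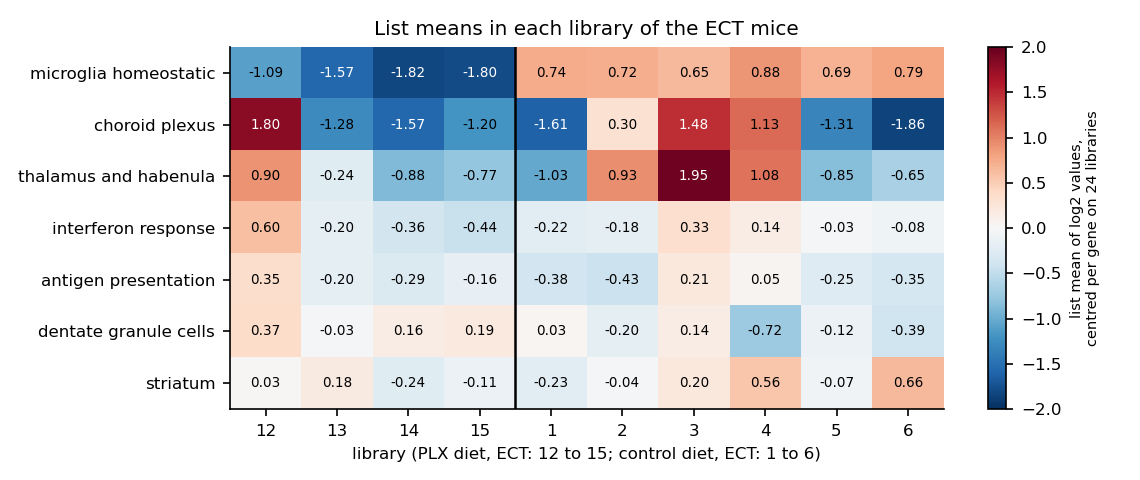
Mean of the log2 values of 7 gene lists, centred per gene on all 24 libraries, in each library of the ECT mice (columns, PLX diet 12 to 15 left of the line, control diet 1 to 6 right of it). The homeostatic microglial row separates the diets in every library, while the choroid plexus and thalamus rows are high in library 12 of the PLX group and libraries 2, 3 and 4 of the control group.

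Genes of other cell types were mostly not called. Among the lists of homeostatic astrocytes (15 genes), oligodendrocyte precursors (16), myelin (15), vessels (19), pyramidal cells (15) and interneurons (15), 0 genes were called in either direction by limma, with list medians of -0.08, -0.11, -0.04, -0.08, 0.03 and -0.05. Lists of tissue next to the hippocampus were shifted more, also with 0 called by limma. The median was 0.40 for meningeal fibroblasts (12 of 13 positive) and -0.50 for thalamus and habenula (10 of 10 negative). Over the alternatives run, up to 2 meningeal genes were called higher. Without library 12 these medians were 0.31 and -0.95. In the reactive astrocyte list 13 of 15 genes had positive fold changes (median 0.19), and 1 was called. That gene was Aspg, an asparaginase, with 57.0, 39.1, 38.6 and 40.7 normalized counts on the PLX diet, against between 22.3 and 31.5 (median 27.8) on the control diet (log2 0.66, SE 0.18, adjusted p = 0.0437). The Aspg call was lost in 10 of 20 alternatives, among them the fit without library 12 (adjusted p = 0.239). Gfap, the intermediate filament of astrocytes, had 12356, 10817, 10480 and 9088, against between 5823 and 13359 (median 6746) on the control diet (log2 0.51, adjusted p = 0.131). Control library 5 lay above all PLX libraries and the other 5 control libraries below all of them, and Gfap was called higher without library 5. Lcn2, lipocalin 2, was at 9.35 ± 3.58 on the PLX diet, against 2.76 ± 3.13 on the control diet (adjusted p = 0.351).

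The 67 higher genes included secreted signals and genes of dentate granule cells. Wnt9a (chromosome 11, 59306849 to 59333552), a Wnt ligand, had 311, 254, 218 and 297 normalized counts on the PLX diet, against between 132 and 194 (median 152) on the control diet (log2 0.78, SE 0.13, adjusted p = 0.000266). Its groups did not overlap, and its call held in every alternative run. It was the 1 called gene of 23 in the Wnt list. Ntf3 (chromosome 6, 126101412 to 126166772), which codes for the neurotrophin NT-3, had 236, 163, 177 and 222, against between 70.9 and 158 (median 98.2) on the control diet (log2 0.88, SE 0.18, adjusted p = 0.00366). The lowest PLX library, 13, lay just above the highest control library, 3. Bdnf, the related neurotrophin induced by seizures, did not pass, at 889 ± 134 on the PLX diet, against 828 ± 215 on the control diet (adjusted p = 0.800). Cyp26b1, which degrades retinoic acid, had 299.6, 277, 247 and 353, against between 101 and 238 (median 161) on the control diet (log2 0.84, SE 0.18, adjusted p = 0.00782), the 1 called gene of 16 in its pathway list. With the ECT groups alone in the model, neither Ntf3 (adjusted p = 0.0948) nor Cyp26b1 (adjusted p = 0.145) passed, and Cyp26b1 did not pass without library 15 (adjusted p = 0.0591).

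In the granule cell list all 12 fold changes were positive (median 0.35), and 2 genes were called. Tdo2 (chromosome 3, 81958412 to 81975728), tryptophan 2,3-dioxygenase, had 164, 120.2, 188 and 149 normalized counts on the PLX diet, against between 63.8 and 141 (median 86.8) on the control diet (log2 0.77, SE 0.15, adjusted p = 0.00194). Control library 3 overlapped the PLX range and the other 5 lay below it, and Tdo2 did not pass with the ECT groups alone in the model (adjusted p = 0.0890). Plk5, a kinase-like protein of the polo family, had 1188, 848, 895 and 886, against between 345 and 838 (median 493) on the control diet (log2 0.83, SE 0.19, adjusted p = 0.0187), and did not pass without library 12 (adjusted p = 0.106) or library 4 (0.0534), with the title letter (0.0540) or with the ECT groups alone (0.222). The granule list mean was 0.37, -0.03, 0.16 and 0.19 in libraries 12 to 15, against -0.72 to 0.14 in the control libraries. Control libraries 4 and 6 were lowest, at -0.72 and -0.39, and had the highest means of the striatum list, at 0.56 and 0.66, against -0.24 to 0.18 in the PLX libraries and -0.23 to 0.20 in the other control libraries. Both also had the highest means of the neocortex list, at 0.43 and 0.31. The PLX libraries ran from -0.13 to 0.19 there and the other control libraries from -0.32 to -0.05. Summed over 11 striatum genes, levels were 5748 to 6190 on the PLX diet and 6084 to 7565 on the control diet. The part of the dissected tissue in these rises was not tested. With the choroid plexus and thalamus list means as covariates, 65 genes were called higher, 52 of them among the 67. The striatum and neocortex lists were not covariates, so that fit cannot speak to striatal or neocortical tissue.

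Other rises named here, apart from that of Abcc8, were in genes of low level or less certain call. Nhlh1, a transcription factor of young neurons, had 123, 81.0, 56.4 and 72.2 normalized counts on the PLX diet, against between 32.6 and 52.7 (median 47.9) on the control diet (log2 0.84, SE 0.20, adjusted p = 0.0158), and was not called without library 12 (adjusted p = 0.129) or with the ECT groups alone (adjusted p = 0.0968). Il27ra, the interleukin 27 receptor, had 50.8, 34.5, 37.6 and 44.8, against between 17.4 and 29.5 (median 24.0) on the control diet (log2 0.80, SE 0.18, adjusted p = 0.0107). Il27ra did not pass in 4 of 20 alternatives, which were those without library 12 or 15, the title letter and the ECT groups alone (adjusted p up to 0.0924). The long transcript C630031E19Rik had the largest rise, 1.22 on the log2 scale (adjusted p = 0.0486), followed by Sla2, an adaptor of lymphocyte receptors, at 1.08 (adjusted p = 0.0307), and they did not pass in 10 and 7 of 20 alternatives. Mafa, Zcchc5 and Pla2g4e, a phospholipase, had log2 fold changes of 0.86, 0.82 and 0.76, and did not pass in 7, 7 and 10 of 20 alternatives, among them the title letter and the ECT groups alone. Among abundant neuronal genes, Adcy1, the calcium-stimulated adenylyl cyclase, had 23540, 19842, 19891 and 22370, against between 15717 and 19059 (median 17357) on the control diet (log2 0.30, SE 0.07, adjusted p = 0.0118), without overlap. Adcy1 did not pass without library 12 (adjusted p = 0.0865), without library 15 (0.0685) or with the ECT groups alone (0.0662). Abcc8, a subunit of the ATP-sensitive potassium channel, had 1077, 903, 1019 and 1054, against between 739 and 885 (median 821) on the control diet (log2 0.31, SE 0.06, adjusted p = 0.00194), and was called in every alternative run.

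A few called falls were in neuronal and clock genes. Sox11 (chromosome 12, 27334268 to 27342718), a transcription factor of immature neurons, had 294, 284, 271 and 303 normalized counts on the PLX diet, against between 334 and 464 (median 390.1) on the control diet (log2 -0.42, SE 0.09, adjusted p = 0.00516), without overlap and with little spread on the PLX diet. It was the 1 gene called lower of 22 in the neurogenesis list (median -0.13), and Nhlh1 the 1 called higher. Per2, a clock repressor, had 874, 829.8, 739.6 and 739, against between 955 and 1176 (median 1030.5) on the control diet (log2 -0.39, SE 0.09, adjusted p = 0.00793), and its call was lost without library 15. Cirbp, a cold-inducible RNA-binding protein of the same list, was higher instead, at 902 ± 129.7 on the PLX diet, against 673 ± 106 on the control diet (adjusted p = 0.0435), a call lost in 9 of 20 alternatives. Adcy5, a cyclase of the striatum list, fell by 0.22, lost in 8 of 20. Of 18 immediate early genes 0 were called by limma and 1 had a positive fold change (median -0.27). Fos, for one, had 55.0, 111, 222 and 239.8, against between 70.9 and 577 (median 235) on the control diet (adjusted p = 0.700), a spread within each group larger than the difference between them. Of 16 chaperones of the endoplasmic reticulum 0 were called by limma, and all 16 fold changes were negative (median -0.28). Without library 14, 8 of them were called lower (median -0.44), and DESeq2 called 2. The list had a list mean of 0.20 in library 14 against -0.29 to -0.24 in the other PLX libraries and -0.07 to 0.45 on the control diet.

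**Figure D4:**
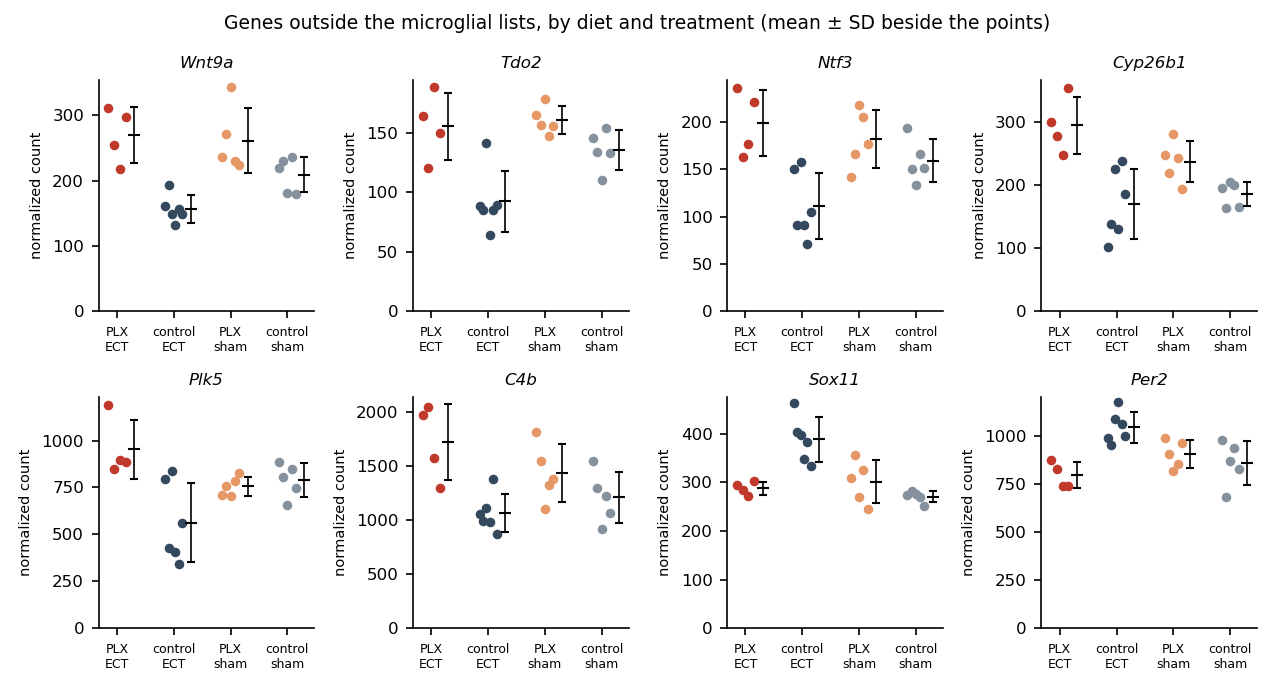
Normalized counts of 8 genes in each library of the 4 stressed groups, with the mean and SD beside the points and each axis starting at 0. For Wnt9a, Tdo2, Ntf3, Cyp26b1, Plk5 and C4b the control-diet ECT group has the lowest mean of the 4 groups, and for Sox11 and Per2 the highest.

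The same diet comparison in sham mice shares no library with the one in ECT mice. In sham mice 270 genes were called lower (1.77%) and 13 higher (0.0854%). Of the lower genes, 221 were called in both, 78.1% of those in ECT mice and 81.9% of those in sham mice. The 283 genes had a median of -1.33 in ECT mice and -1.38 in sham mice, and 274 were negative in sham mice. The log2 fold change of P2ry12 was -2.74 in ECT mice and -2.86 in sham mice, and that of Csf1r -2.83 in ECT mice and -2.59 in sham mice. Of the higher genes 0 were shared. The 67 genes had a median of 0.42 in ECT mice, the comparison that chose them, and 0.04 in sham mice, where 46 were positive.

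Whether the diet difference itself differed between ECT and sham mice was tested for each gene. By limma 0 genes passed (0% of those tested), with 1043 at an unadjusted p below 0.05, and edgeR and DESeq2 called 0 as well. Homeostatic microglial genes had a median difference of -0.04 between the treatments. Crybb1 differed most among the genes named above in that list, with log2 fold changes of -4.66 in ECT mice and -3.09 in sham mice, at 2.13 ± 2.01 and 5.88 ± 1.88 on the PLX diet, but the difference did not pass (adjusted p = 0.626). Sox11 fell by 0.42 in ECT mice, and its log2 fold change was 0.14 in sham mice (adjusted p of the difference = 0.626). For Ntf3 the values were 0.88 and 0.18 (adjusted p of the difference = 0.644), and for Plk5 0.83 and -0.05 (adjusted p of the difference = 0.644). In 66 of the 67 higher genes the control-diet ECT group had the lowest mean of the 4 stressed groups, and in 60 the PLX-diet ECT group had the highest. These genes were chosen by the difference between those 2 groups, so the ranks describe them and test nothing. Ntf3, for example, averaged 199.5 ± 35.01 on the PLX diet, against 111 ± 35.3 on the control diet in ECT mice, and 182 ± 30.7 on the PLX diet, against 159 ± 22.6 on the control diet, in sham mice.

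**Figure D5:**
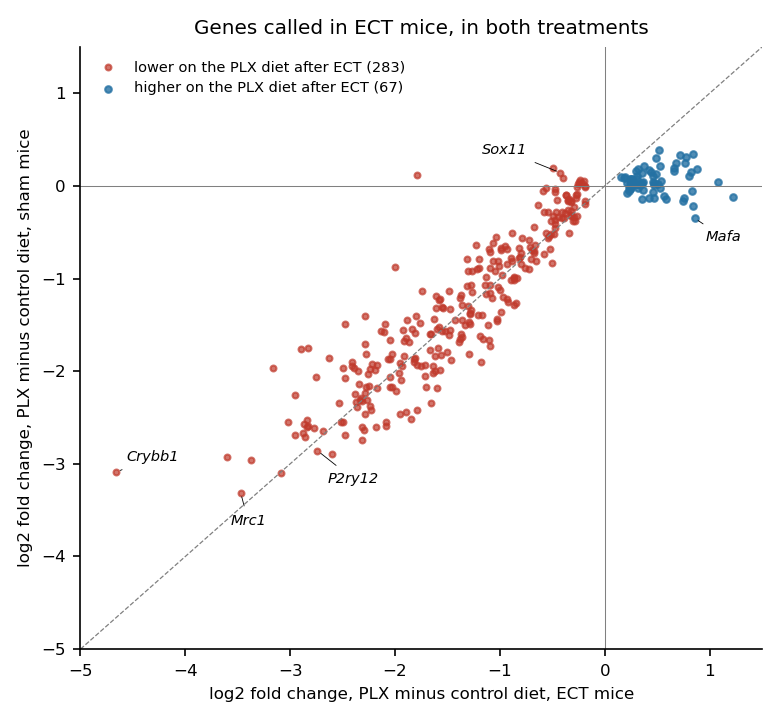
Log2 fold change, PLX diet minus control diet, of the 283 lower and 67 higher genes called in ECT mice (x axis) against that in sham mice (y axis), with the line of equal change dashed. The lower genes lie near the line, with 274 negative in sham mice, and the 67 higher genes spread around 0 in sham mice.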

How the data were processed

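Hippocampal poly(A) RNA-seq was analysed from 10 libraries of ECT mice, with the other 14 of the series in the same model. The authors deposited a signal value per gene and library, the normalized count of the file header, which is the reads of the gene over the library's size factor. The submitters' processing notes list DESeq2 1.6.3, HTSeq 0.6.1p1, TopHat2 2.0.10 and cutadapt as tools, and mm10 and hg19 as builds, with no role given. The strand setting and annotation used were not given in the sources used here. Reads of antisense genes and near-identical copies could not be told apart. Values were whole multiples of 1 step per library (100% of values, tolerance 0.001 reads), so reads could be recovered. The 21 pairs of replicates in these groups differed beyond the noise of counting (chi-square over its degrees of freedom 4.86 to 24.2). Replicate numbers are the running library numbers, so the groups share none. Titles carry a letter of unstated meaning, in ECT mice G and H on the PLX diet and A, E and F on the control diet.

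limma 3.58.1 (trend and robust, R 4.3.3) was fitted to log2(value + 1) of 15225 genes, with 5 group means over 24 libraries. Fold changes of low genes are understated on this scale. Adjustment was by Benjamini-Hochberg over all tested genes at 0.05. The test was checked on simulated data with planted changes, most of which it called. The planted changes were larger than nearly all rises called here, so the check does not cover small changes. Alternatives were edgeR 4.0.16 (TMM, RLE) and DESeq2 1.42.0 on the recovered reads, no filter, pseudocounts of 0.5 and 8, only the compared groups, the title letter as a random effect, choroid plexus and thalamus list means as covariates, and leaving out single libraries. The title letter fit used limma with voom weights and TMM factors on the recovered reads. It differed from the main fit in more than the letter, so calls lost there cannot be credited to the letter alone. The 50 gene lists and the comparison were chosen with earlier results of these data known, and no list was tested as a set. Genes were named by a rule: the 12 largest rises and falls with a mean of at least 20, up to 4 called members per list and 25 fixed genes, of which a subset is given. Named outside the rule, after their values were seen, were Alas2, Btk, C3, C3ar1, C4b, C5ar1, Cd300a, Ctsh, Fcgr2b, Grn, Hhex, Lcn2, Runx1, Sall1, Syk, Abcc8, Adcy1 and the genes of lipid mediators and the NADPH oxidase in the closing section. Coordinates and promoters are RefSeq's on GRCm38.p6, matched by symbol.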

Additional observations from a re-analysis of the deposited data

Results flagged for a closer look

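Single libraries far from the rest of their group were looked for in the 2 ECT groups, over 302 sets of values (genes named here and list means), and 28 were found. The measure was Dixon's ratio, with cutoffs of 0.829 for 4 libraries and 0.625 for 6. For independent normal values it flags about 1 in 20. These sets come from the same libraries, and list means hold genes named here, so that rate is no benchmark. Of the 28, 18 were library 12 of the PLX group. It was the highest of its group for the complement genes C1qa (317 normalized counts, others 109.9 to 129), C1qb (344, others 116 to 142) and C1qc (262, others 115 to 133). The same held for the adaptor Tyrobp (70.5, others 27.4 to 31.7), cathepsin S, Ctss (344, others 147 to 167), and the factors Irf8 (47.7, others 14.1 to 19.6) and Irf5 (29.0, others 13.0 to 14.9). It held too for Cd14 (11.4, others 8.91 to 9.31), Nlrp3 (8.29, others 2.97 to 3.73), Lgals9 (114, others 67.3 to 70.8) and B2m (2368, others 1685 to 1785). Further genes were Il1a (9.33, others 1.66 to 2.97), Ltc4s (44.6, others 6.64 to 9.90) and Cysltr1 (8.29, others 0.83 to 0.99). Outside the immune genes, library 12 was the highest for Aspg (57.0, others 38.6 to 40.7) and Plk5 (1188, others 848 to 895). Its choroid plexus list mean was 1.80 (others -1.57 to -1.20), and its glutamate receptor list mean was the lowest, -0.0567 (others 0.04 to 0.06).

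The other libraries stood apart for fewer values. In library 14 of the PLX group C5ar1 was lowest, at 0.99 (others 3.73 to 4.15), and the mean of endoplasmic reticulum chaperones highest, at 0.20 (others -0.29 to -0.24). In library 13 Bdnf was lowest, at 688 (others 938 to 972), and the neocortex list mean highest, at 0.19 (others -0.13 to -0.11). In the control group, library 1 was lowest for Runx1 (9.61, others 19.98 to 25.3) and for the Toll-like receptor mean (0.10, others 0.28 to 0.37). Library 3 was highest for Tdo2 (141, others 63.8 to 89.4) and for the neurotrophic factor mean (0.14, others -0.22 to -0.10). Library 5 was lowest for Fcgr3 (177, others 216 to 236) and highest for Gfap (13359, others 5823 to 7841).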

How the results depend on the processing

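The count of genes called lower (283) stayed within 1.5 times under all 20 alternatives, from 206 without library 15 to 299 by DESeq2, with 213 under the title letter as a random effect and 213 with only the compared groups. The count called higher (67) was less stable. It was 105 by DESeq2, 16 with only the compared groups, 21 with the title letter, and between 13 and 101 when single libraries were left out (13 without library 12, 21 without 15, 34 without 4 and 101 without 1). No gene was called in the test of the difference between ECT and sham mice under any alternative. Of 76 lower genes named here, 66 were called in every alternative, and of 17 higher genes, 2. No called gene named here changed sign. Il34, not called, was at -0.0737 on the log2 scale with all libraries and ran from -0.158 without library 15 to 0.0755 without library 12. Causes were not tested. No paired analysis was made, because the labels give no pairing between the compared groups and these groups share no title letter. Groups of 4 and 6 libraries limit what can be seen: a gene that did not pass is not shown to be equal, and levels of a few counts rest on few reads.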

Other observations

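Some genes of lipid mediators are given here as a description: they were picked after their values were seen, belong to no list used above apart from Ltc4s, and say nothing of the pathway as a whole. Alox5ap, the partner of 5-lipoxygenase, had 22.8, 13.0, 21.8 and 24.9 normalized counts in libraries 12, 13, 14 and 15 on the PLX diet, against between 63.8 and 83.3 (median 75.01) on the control diet (log2 -1.82, SE 0.19, adjusted p = 3.05e-07). Alox5 itself averaged 4.42 ± 3.03 on the PLX diet, against 13.3 ± 3.37 on the control diet (adjusted p = 0.0434) and was not called in 13 of 20 alternatives. Ltc4s, leukotriene C4 synthase, had 44.6, 7.45, 9.90 and 6.64, against between 33.8 and 72.9 (median 56.5) on the control diet, with library 12 inside the control range and the other 3 below it. Its call was lost in 7 of 20 alternatives, among them both edgeR fits and the fit with title letters as a random term. In the prostaglandin branch Hpgds, the hematopoietic prostaglandin D synthase, had 28.0, 31.7, 12.9 and 24.1, against between 91.2 and 125 (median 112) on the control diet (log2 -2.19, SE 0.20, adjusted p = 5.15e-08). Ptgs1, cyclooxygenase 1, kept 50.7% of its control level, Tbxas1, thromboxane synthase, 31.5%, and Hpgd, which inactivates prostaglandins, 25.9%. The receptors Cysltr1 and Ptafr were at 2.76 ± 3.69 and 0.673 ± 0.884 on the PLX diet, against 9.14 ± 2.30 and 8.55 ± 5.25 on the control diet. The Cysltr1 call was lost in 3 of 20 alternatives (without library 13 or 15 and with the ECT groups alone).

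Genes of the phagocyte NADPH oxidase are likewise a description of members picked after their values were seen. Ncf1 (p47-phox) had 48.7, 37.3, 12.9 and 29.0 normalized counts on the PLX diet, against between 112 and 154 (median 134) on the control diet (log2 -2.17, SE 0.24, adjusted p = 1.33e-06). Ncf4 kept 24.1% of its control level, the membrane subunit Cyba 58.1% and Hvcn1, the proton channel that works beside the oxidase, 34.6%. Library 12 was the highest of its group for Ncf1, as for most microglial genes.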
